A study of Sus scrofa with 2 samples.

Results

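The genes described here encode potassium, calcium and sodium channel subunits, transient receptor potential (TRP) channels and anoctamins, a family of calcium-activated chloride channels and lipid scramblases. They were chosen by symbol alone (KCN, CACNA, CACNB, CACNG, SCN with a number and A or B, TRPA, TRPC, TRPM, TRPV and ANO), with no use of their levels, and numbered 152 of the 14857 gene identifiers paired with a symbol, in a table of 25880 identifiers. They comprised 85 potassium, 25 calcium and 12 sodium channel genes, 20 TRP genes and 9 anoctamins. The remaining member, TRPC4AP, shares the start of its symbol but encodes an adaptor of a ubiquitin ligase and no channel. The cells were PSI, a smooth muscle line grown up as 1 clone from the ileum (distal small bowel) of a pig. They were cultured in DMEM containing 10% FBS and 1% antibiotics, and both libraries, replicates 1 and 2, carried the same labels, with no other cell, tissue, treatment or time to set beside them. Whether the libraries came from separate cultures is not stated in the labels, so each SD (n = 2) may reflect technical variation alone.

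Ion channels set the membrane potential of gut smooth muscle. Opening of voltage-gated calcium channels admits the calcium that starts contraction, and potassium channels bring the potential back and hold it down. Cation channels of the TRP family depolarise the muscle after acetylcholine acts on muscarinic receptors, and the chloride channel ANO1 of the interstitial cells of Cajal, the pacemaker cells of the gut wall, carries the slow wave. Calcium and sodium channels are built from a pore-forming alpha subunit with auxiliary subunits that control its transport and gating.

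Levels are given as FPKM, a read density that is divided by gene length and by the size of the library, which allows genes to be compared as far as their models are complete. Library sizes worked out from the FPKM steps were 35176565 and 32217729. A single read over 1 kb of gene thus counted as 0.0284 FPKM in replicate 1 and 0.0310 in replicate 2. Of 10 smooth muscle markers, 7 reached 1 FPKM in both libraries, against 61.5% of all identifiers with a symbol. Among the 7 were ACTA2 (702 and 685 FPKM) and CNN1 (253 and 255), but also the lower TAGLN (5.34 and 5.58) and DES (2.74 and 3.06). SYNPO2 stayed under 1 FPKM (0.185 and 0.111). MYOCD, which encodes the smooth muscle coactivator myocardin, was listed at 0, and the identifier paired with MYH11 had 0.461 and 0.522 FPKM, a pairing that is uncertain. The ribosomal protein gene RPL29, used by every cell, was also listed at 0, and the glycolytic gene TPI1, likewise used by every cell, had 0.424 and 0.224 FPKM. Values of 0 and low values are therefore given here only as listed, and do not show that a gene is silent.

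Most channel genes were at or near 0. Of the 152 genes, 20 reached 1 FPKM in both libraries (13.2%), against 61.5% of all identifiers with a symbol and 40.9% of the whole table. A further 30 had a mean of 0.1 FPKM or more without reaching 1 in both, 52 had a mean above 0 and under 0.1, and 50 were listed at 0 in both libraries. The median mean level was 0.0224 FPKM over the 152 genes and 3.90 over all identifiers with a symbol. Of those 52, 18 were listed at 0 in 1 library, and in the other they had at most 0.0659 FPKM. At most 5 reads were recovered for any of these 18, and recovered reads are lower bounds of the true ones. In bulk RNA, fewer cells with a transcript and less transcript per cell cannot be told apart.

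**Figure D1:**
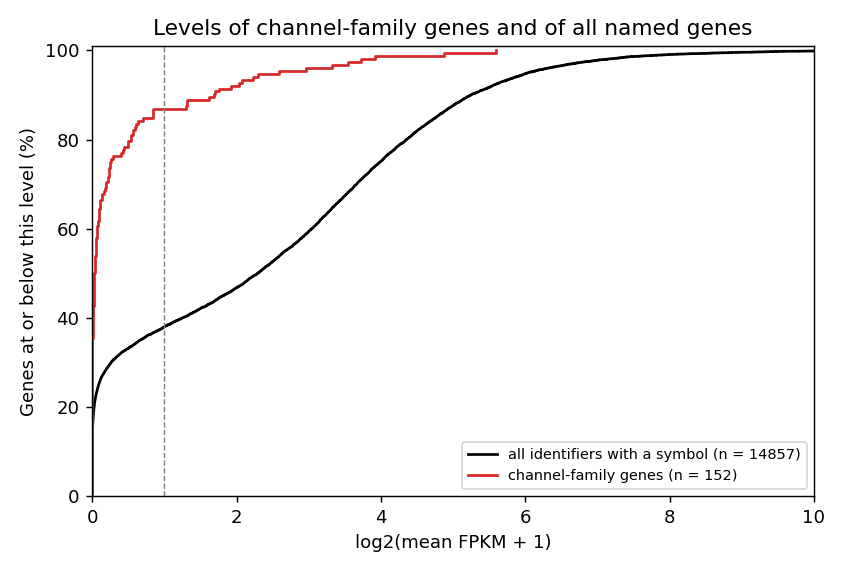
Cumulative percentage of genes (y axis) at or below each level, as log2(mean FPKM + 1) over both libraries (x axis), for the 152 channel-family genes in red and the 14857 identifiers with a symbol in black. The dashed line marks 1 FPKM. The red curve lies above the black one because most channel genes are near 0, with a median of 0.03 against 2.29 on this scale.

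The members above 1 FPKM were unevenly spread over the families. Anoctamins had 3 of 9 members at that level, TRP genes 5 of 20, calcium channel genes 5 of 25, sodium channel genes 3 of 12 and potassium channel genes 3 of 85. All members together summed to 174 FPKM in replicate 1 and 178 in replicate 2 (176 ± 2.62, SD, n = 2). The 5 highest members held 64.7% of that sum in replicate 1 and 63.6% in replicate 2. Without TRPC4AP, anoctamins made up 46.1% and 45.4% of the channel sum, calcium channel genes 22.7% and 22.3%, TRP genes 15.2% and 15.8%, potassium channel genes 12.2% and 12.3%, and sodium channel genes 3.86% and 4.11%. The largest family by number, the potassium channels, therefore had a smaller summed level, 17.8 and 18.4 FPKM, than the single gene ANO6.

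**Figure D2:**
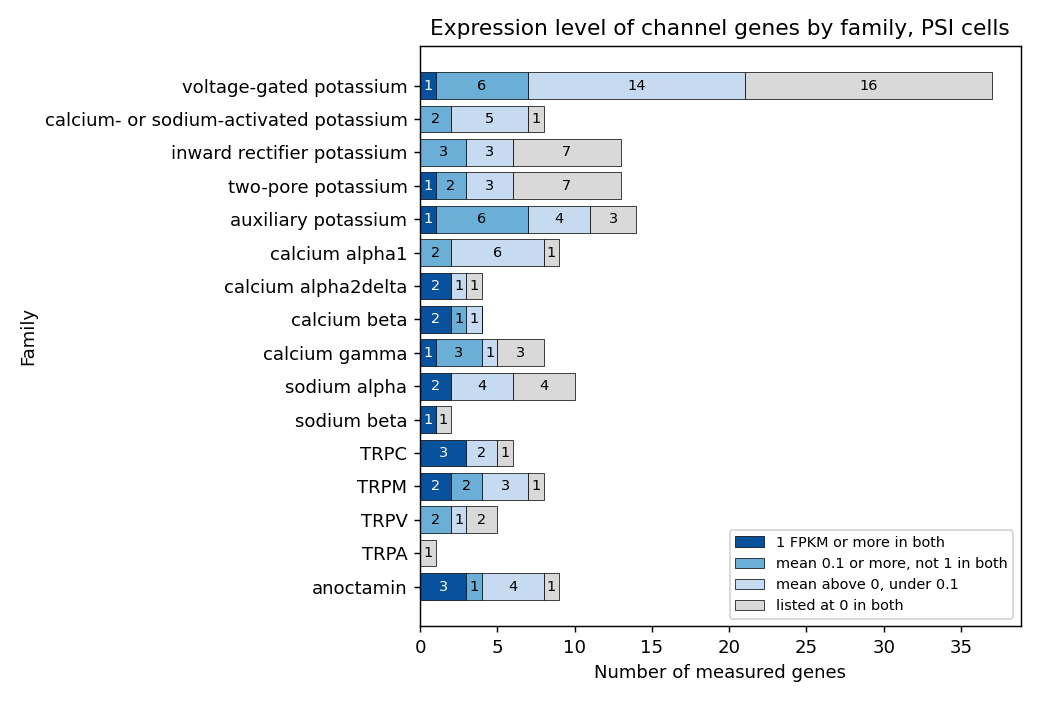
Number of measured genes (x axis) in each channel family (y axis), split by level in the PSI libraries; white and black digits give the count in each segment. Of the 37 voltage-gated potassium genes 1 reached 1 FPKM in both libraries and 16 were listed at 0, whereas 3 of the 6 TRPC genes and 3 of the 9 anoctamin genes reached that level.

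Anoctamins gave the highest level of all members. ANO6, a calcium-activated lipid scramblase that also conducts ions, had 47.2 FPKM in replicate 1 and 47.8 in replicate 2 (47.5 ± 0.375, SD, n = 2). At least 2208 and 2045 reads lay behind these values. It stood within the highest 7.55% of all identifiers with a symbol. On the Sscrofa11.1 assembly, RefSeq places ANO6 on chromosome 5 from 76112428 to 76337073. ANO10 and ANO8, both proteins of intracellular membranes, followed. ANO10 had 12.2 and 12.4 FPKM (12.3 ± 0.178), and ANO8 had 6.84 and 6.71 (6.78 ± 0.0893). The RefSeq model of ANO8 overlaps that of DDA1, which had a mean of 2.48 FPKM, so reads of these genes may be misassigned.

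The anoctamin known from gut pacemaking was lower. ANO1 had 0.819 and 0.765 FPKM (0.792 ± 0.0387), from at least 179 and 153 reads, which is under 1 FPKM in both libraries and well apart from ANO6. Of the other 3 measured markers of interstitial cells of Cajal, the receptor gene KIT had 0.477 and 0.668 FPKM, the transcription factor gene ETV1 14.0 and 14.5, and THBS4 0.0592 and 0.0538. The part of such cells in the ANO1 level was not tested. ANO4, ANO2 and ANO9 had means between 0.0364 and 0.0735 FPKM, ANO5 had 0 in replicate 1 and 0.0310 in replicate 2, and ANO3 was listed at 0 in both.

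**Figure D3:**
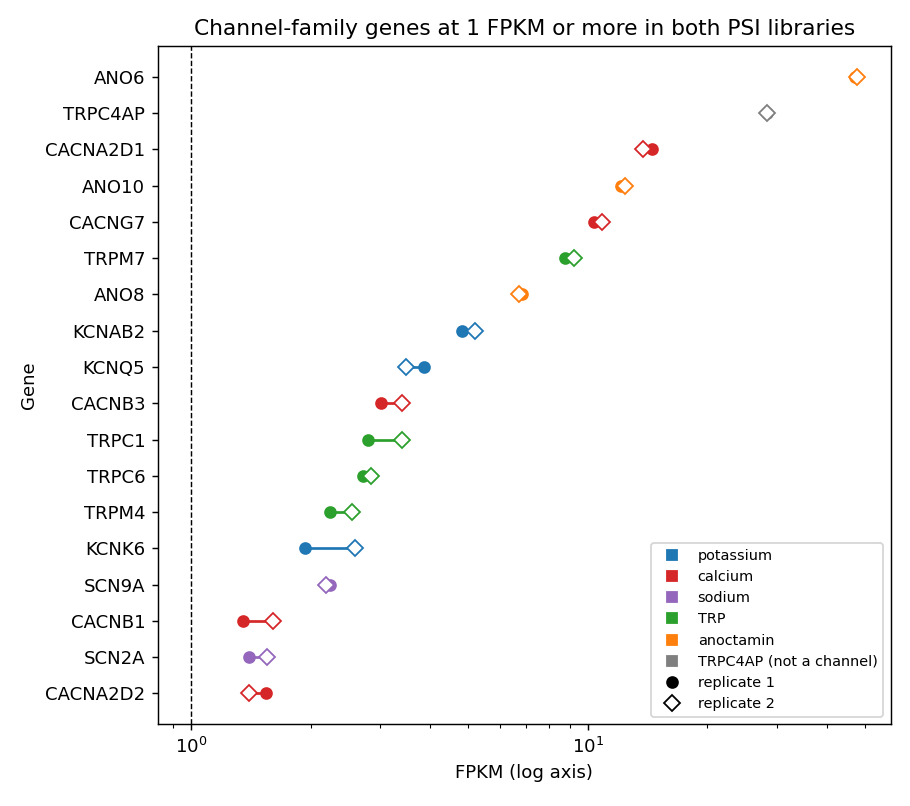
Level in FPKM on a log axis (x axis) of 18 of the 20 members at 1 FPKM or more in both libraries (y axis), with a filled circle for replicate 1, an open diamond for replicate 2 and a line joining them, coloured by channel class. The dashed line marks 1 FPKM. The levels run from 47.5 for ANO6 to 1.47 for CACNA2D2, and the libraries lie within 1.34-fold of each other for every gene shown.

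Of the TRPA, TRPC, TRPM and TRPV channel genes, 5 reached 1 FPKM in both libraries, of which 4 are described here. TRPM7, a magnesium- and calcium-permeable channel fused to a kinase, had 8.77 FPKM in replicate 1 and 9.25 in replicate 2 (9.01 ± 0.341, SD, n = 2). It was higher than every other TRPA, TRPC, TRPM and TRPV channel gene in both libraries. RefSeq places it on chromosome 1 from 121146093 to 121250227. TRPM4, a calcium-activated channel for monovalent cations, had 2.24 and 2.55 FPKM (2.39 ± 0.220). TRPM6, the close relative of TRPM7, had 0.407 and 0.402 FPKM, and the cold receptor gene TRPM8 had 0.153 and 0.196. TRPM5, TRPM2 and TRPM1 had means of 0.0242 FPKM or less, and TRPM3 was listed at 0.

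The receptor-operated TRPC channels split into members above 1 FPKM and members listed near 0. TRPC6, opened by diacylglycerol, had 2.72 and 2.84 FPKM (2.78 ± 0.0875). TRPC1, which forms channels together with other TRPC subunits, had 2.79 and 3.40 FPKM (3.10 ± 0.427). The ranges of TRPC1 and TRPC6 over the libraries overlapped. In contrast, TRPC4, which carries most of the muscarinic cation current of mouse ileal muscle, had 0.0588 and 0.0826 FPKM (at least 7 and 9 reads). The RefSeq model of TRPC4 overlaps 3 other genes, among them protein-coding UFM1, so its reads may be misassigned. That of TRPC6 overlaps 1 non-coding RNA gene. TRPC7 had 0.0128 in replicate 1 and 0 in replicate 2, and TRPC5 was listed at 0. RefSeq places TRPC6 on chromosome 9 from 32332768 to 32439184.

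No TRPV or TRPA gene reached 1 FPKM. TRPV4, an osmotically and mechanically sensitive calcium-permeable channel, was the highest, with 0.735 FPKM in replicate 1 and 0.513 in replicate 2. TRPV2 had 0.373 and 0.272 FPKM. TRPV1, the capsaicin receptor of sensory nerves, had 0 in replicate 1 and 0.0239 in replicate 2, and TRPV3, TRPV6 and TRPA1 were listed at 0. TRPC4AP, the member that is no channel, had 28.2 and 28.3 FPKM (28.2 ± 0.0296), the next highest level after ANO6.

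All 5 calcium channel genes at 1 FPKM or more encode auxiliary subunits. CACNA2D1, the alpha2delta subunit that promotes transport of calcium channels to the surface and binds gabapentin, had 14.5 FPKM in replicate 1 and 13.8 in replicate 2 (14.2 ± 0.536, SD, n = 2). RefSeq places it on chromosome 9 from 97781057 to 98265925 with no overlapping gene. A related subunit gene, CACNA2D2, had 1.55 and 1.40 FPKM (1.47 ± 0.107). CACNA2D3 had 0.00702 in replicate 1 and 0 in replicate 2, and CACNA2D4 was listed at 0. Among the cytoplasmic beta subunits, CACNB3 had 3.02 and 3.40 FPKM (3.21 ± 0.273) and CACNB1, the partner of the skeletal muscle channel, had 1.35 and 1.61 (1.48 ± 0.185). CACNB2, the main beta subunit of heart, had 0.183 and 0.200 FPKM, with only 1 read recovered per library as a lower bound. CACNB4 had 0.0146 and 0.0159.

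The 9 measured pore-forming alpha1 genes all stayed under 1 FPKM and together summed to 0.585 FPKM in replicate 1 and 0.458 in replicate 2, against 16.1 and 15.2 for the 4 alpha2delta genes and 4.57 and 5.23 for the 4 beta genes. CACNA1A, the P/Q-type channel of nerve endings, was the highest, with 0.176 and 0.171 FPKM. CACNA1S, the L-type channel of skeletal muscle, had 0.197 and 0.136. These neighbours overlapped over the libraries. The L-type gene CACNA1D had 0.0602 and 0.0438 FPKM, the T-type genes CACNA1G 0.0982 and 0.0581 and CACNA1H 0.00906 and 0.0297. CACNA1C, the L-type channel of smooth muscle, was matched by no measured identifier and not analysed here. The alpha1 sum therefore leaves out the gene with the best known role in this muscle.

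The gamma subunit gene CACNG7 stood apart from its family. It had 10.4 FPKM in replicate 1 and 10.9 in replicate 2 (10.6 ± 0.349), based on at least 937 and 899 reads. Its protein is known as a regulator of AMPA-type glutamate receptors in neurons and glia. The pairing of the CACNG7 identifier with its symbol could not be checked by chromosome order. The next gamma genes were CACNG6 (0.481 and 0.578 FPKM), CACNG4 (0.489 and 0.534) and CACNG8 (0.426 and 0.485), all under every value of CACNG7. CACNG5 had 0.0188 and 0.0478, and CACNG1, the skeletal muscle subunit, CACNG2 and CACNG3 were listed at 0.

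Among 12 neuron markers, the defining genes ELAVL3, ELAVL4, PRPH and CHAT were listed at 0. SNAP25 had 0 in replicate 1 and 0.0172 FPKM in replicate 2. The whole list summed to 269 and 267 FPKM, with 2 of 12 at 1 FPKM or more: UCHL1, with 239 and 236 FPKM, and TUBB3, with 28.9 and 29.4. Of 3 measured glial markers, FOXD3 reached 1 FPKM (3.24 and 2.98), while SOX10 had 0.137 and 0.140. The part of neurons or glia in the CACNG7 level was not tested.

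Sodium channels were present at low levels. SCN9A, the Nav1.7 channel known from pain-sensing neurons, had 2.24 FPKM in replicate 1 and 2.19 in replicate 2 (2.22 ± 0.0363, SD, n = 2). SCN2A, a channel of central neurons, had 1.40 and 1.55 (1.48 ± 0.105). The ranges of SCN9A and SCN2A over the libraries did not overlap.

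Other sodium channel genes were near 0. SCN3A had 0.0569 and 0.102 FPKM. SCN8A had 0.0172 and 0.00939, and SCN7A 0.00453 in replicate 1 and 0 in replicate 2. SCN1A, SCN4A, SCN10A, SCN11A and the beta subunit gene SCN2B were listed at 0. RefSeq places SCN9A on chromosome 15 from 72745706 to 72912352, where 3 non-coding RNA genes overlap it.

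Of the 85 potassium channel genes, 3 reached 1 FPKM in both libraries, and 1 of these encodes no pore. KCNAB2, a cytoplasmic beta subunit of voltage-gated channels, had 4.82 FPKM in replicate 1 and 5.20 in replicate 2 (5.01 ± 0.271, SD, n = 2). KCNQ5, a voltage-gated channel of the M-current type that is also found in smooth muscle, had 3.87 and 3.47 FPKM (3.67 ± 0.283), from at least 291 and 239 reads. RefSeq places KCNQ5 on chromosome 1 from 52435332 to 52939705. KCNK6, a K2P background channel, had 1.94 and 2.59 FPKM (2.26 ± 0.461), the widest relative spread among the 20 detected genes.

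The other 36 measured voltage-gated alpha subunit genes were under 1 FPKM. KCND1 had 0.130 and 0.230 FPKM, and KCNS3, a silent subunit that modifies other voltage-gated channels, 0.143 and 0.182. KCNA2, a contributor to the delayed rectifier of gut muscle, was listed at 0. KCND3, an A-type channel gene, had 0 in replicate 1 and 0.0201 in replicate 2. KCNH2, the ERG channel, had 0.110 and 0.0801 FPKM.

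The calcium-activated potassium channels, which dampen excitability of gut muscle, were all listed under 1 FPKM. KCNMA1, the pore of the large-conductance BK channel, had 0.417 FPKM in replicate 1 and 0.531 in replicate 2 (0.474 ± 0.0807). Only 6 and 7 reads were recovered for it, as lower bounds. Its smooth muscle partner KCNMB1 was listed at 0, as were KCNMB2 and KCNMB3, while KCNMB4, the beta subunit typical of neurons, had 0.483 and 0.469 FPKM. The ranges of KCNMA1 and KCNMB4 overlapped. The RefSeq model of KCNMB1, on chromosome 16 from 53616532 to 53631197, lies within that of KCNIP1 (0.803 and 0.771 FPKM), so its listed 0 is uncertain. The small- and intermediate-conductance genes had means of 0.0630 FPKM for KCNN3, 0.0278 for KCNN4 and 0.0207 for KCNN2.

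Among inward rectifiers and background channels, KCNK6 alone reached 1 FPKM in both libraries. KCNJ5, a subunit of G protein-gated channels, had 0.809 and 0.770 FPKM (0.790 ± 0.0279), and KCNJ2, the classical inward rectifier, 0.324 and 0.398 (0.361 ± 0.0527). KCNJ8, the pore of the vascular-type ATP-sensitive channel, had 0 in replicate 1 and 0.00613 in replicate 2. ABCC9, the sulfonylurea receptor that pairs with it, was listed at 0, and its relative ABCC8 had 0.0135 and 0. Of the K2P genes, KCNK7 had 0.615 and 0.302 FPKM and KCNK1 0.364 and 0.470, whereas KCNK2, a stretch-activated channel of gut muscle, had 0 in replicate 1 and 0.0330 in replicate 2 and KCNK3 was listed at 0. KCNJ11 and KCNA5 were matched by no measured identifier and not analysed here.

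Of 40 members picked for a textbook role in gut muscle or its pacemaker cells, 37 were measured. Of these, 10 reached 1 FPKM in both libraries, against 61.5% of all identifiers with a symbol. Among these 10 were ANO6, CACNA2D1, TRPM7, KCNQ5, CACNB3, TRPC1, TRPC6 and TRPM4. A further 6 of the 37 were listed at 0 in both libraries, against 2155 of the 14857 identifiers with a symbol. Among the 6 were KCNMB1, KCNA2, KCNK3, TRPC5 and TRPA1. Those at 1 FPKM or more included TRP channels, auxiliary calcium channel subunits, an anoctamin and a single potassium channel. The genes just inside the 1 FPKM level were CACNA2D2, SCN2A and CACNB1 (means of 1.47, 1.48 and 1.48), and those just outside were ANO1, KCNJ5 and KCNIP1 (means of 0.792, 0.790 and 0.787).

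**Figure D4:**
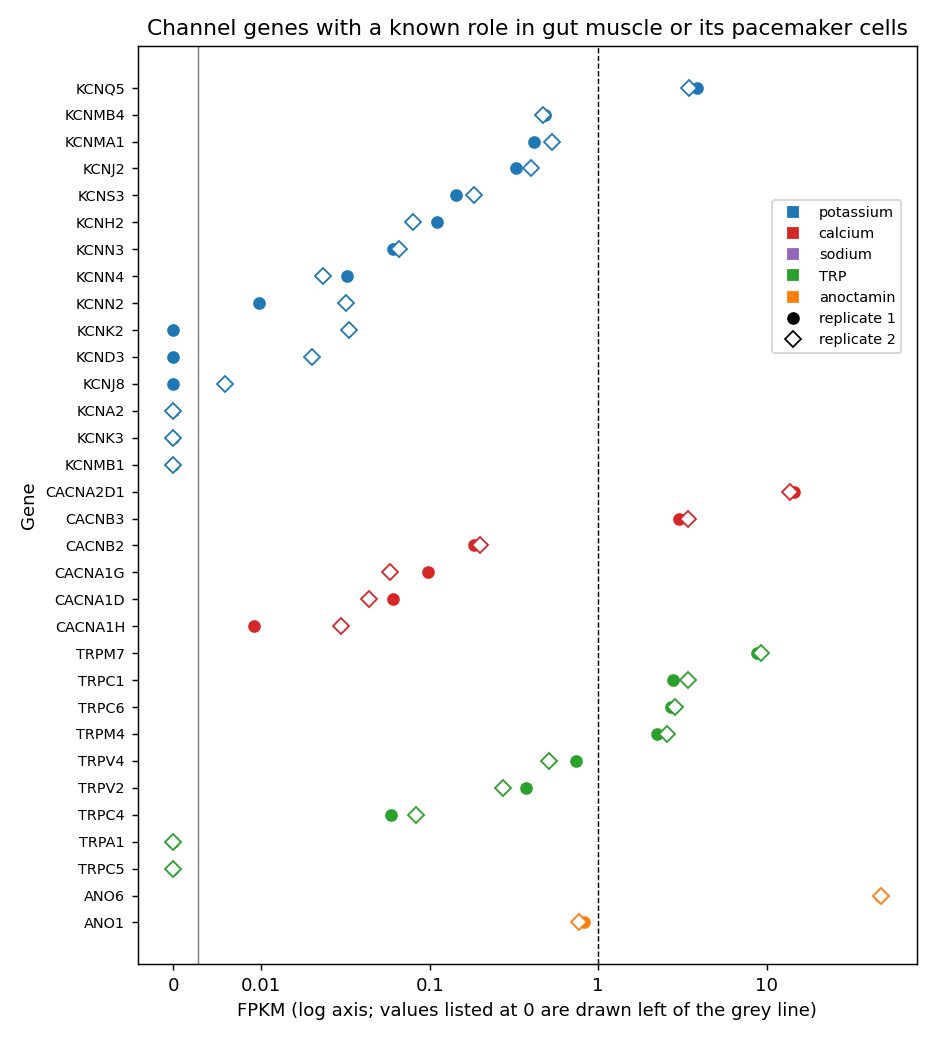
Level in FPKM on a log axis (x axis) of 32 of the 37 measured channel genes with a known role in gut muscle or its pacemaker cells (y axis), with a filled circle for replicate 1 and an open diamond for replicate 2, coloured by class. Values listed at 0 are drawn left of the grey line, where the diamond can cover the circle, and the dashed line marks 1 FPKM. Wide gaps separate some genes above 1 FPKM from relatives listed near 0, such as TRPC6 (mean of 2.78) from TRPC4 (0.0707).

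The libraries gave nearly the same order of channel genes. Among the 19 pairs of neighbours in the order of the 20 detected genes, 8 overlapped over the libraries, such as CACNB3 with TRPC1 and KCNK6 with SCN9A. The 8 highest, from ANO6 to KCNAB2, did not overlap with one another. Of the 20 genes, 15 were higher in replicate 2 (75.0%), against 52.9% of all detected identifiers with a symbol. An exact binomial test of the recovered reads was adjusted by Benjamini-Hochberg over the 16327 genes with reads. It called none of the 102 members with reads different between the libraries, against 1.11% of all genes. The lowest adjusted p was 0.131, for KCNC4 with at least 22 and 5 reads, and 7 members had an unadjusted p under 0.05. Recovered reads are lower bounds, so p is too large where the true reads are a multiple of them, and a difference may be missed. This test compares libraries of 1 group and no condition.

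Of 47 measured genes outside these families that encode channel partners or relatives, 19 reached 1 FPKM in both libraries and 10 were listed at 0. That level was reached by 61.5% of all identifiers with a symbol and 40.9% of the whole table. Of the 14857 identifiers with a symbol, 2155 were listed at 0 in both libraries. All 5 volume-regulated anion channel genes reached 1 FPKM in both, led by the obligatory subunit LRRC8A (28.3 and 30.0 FPKM). The polycystin channel PKD2 had 33.0 and 33.1 FPKM and its partner PKD1 14.1 and 14.4, and the mechanically gated PIEZO1 had 25.2 and 24.7. The lysosomal channels MCOLN1 (10.2 and 9.85), TPCN1 (6.56 and 6.79) and TPCN2 (10.8 and 11.6) were also above that level.

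Partners of the plasma membrane channels were more mixed. GEM and REM1, small GTPases that restrain voltage-gated calcium channels, had 7.44 and 7.89 and 5.49 and 6.28 FPKM. The pacemaker channel HCN2 had 1.71 and 2.01. In the sodium leak channel, the auxiliary subunit genes NALF1 and NALF2 had means of 6.98 and 3.70 FPKM, whereas UNC80 (0.00866 and 0.00631), UNC79 (0 and 0.00491) and the pore gene NALCN (0.00263 and 0.0172) were near 0. DPP6 and DPP10, partners of A-type potassium channels, were listed at 0.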

How the data were processed

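RNA-seq was performed on 2 libraries of 1 clone, made from total RNA with the NEBNext Ultra kit per the labels' protocols. The submitters' processing notes name TopHat2 2.0.12, HTSeq 0.6.1 and the build Sscrofa11.1. Annotation release, strandedness and filtering are not stated there. In the table that the authors deposited, values are FPKM with 1 column per library. Without a stated strand setting, reads of overlapping genes may be misassigned; RefSeq models of 48 of the 146 members with a position overlap another gene, and those of 7 of the 20 detected ones do.

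A table of gene names supplied symbols for 14857 of 25880 identifiers. For 93 of 94 members whose identifiers follow chromosome order, most neighbouring identifiers lay on the RefSeq chromosome of the symbol (exception KCNG2). The other 58 could not be checked so. Of the 20 detected members, only 11 could be checked in this way, and all 11 lay as the symbol predicts. Coordinates are those of RefSeq on Sscrofa11.1, matched by symbol.

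Whole reads were recovered from the FPKM steps as the shortest gene length from 50 to 30000 bp that gave whole reads in both libraries within 1.2 times the rounding of the digits, for 100% of 16327 genes. The true reads can be a multiple of these, hence "at least"; they summed to 90.8% of the totals. The recovery and the test were tested on simulated data with known answers. In those data, 84.6% of genes had their true reads recovered. The 0% with more than these was fixed in advance, since the shortest fitting length is taken. Simulated lengths were recovered ones or random draws, so the 84.6% need not hold for the real genes. In the simulated data, the test called 70.1% of 1.5-fold, 83.6% of 2-fold and 98.5% of 4-fold changes, and 0.0381% of unchanged genes. The changed genes were drawn only from those above a minimum of expected reads. The rates for changed genes therefore do not cover members with few reads. No molecular identifiers were used, so the test between libraries covers counting error alone. It used the recovered reads as they stand, so it can miss a difference where the true reads are a multiple of these. Values were computed with Python 3.11.15, numpy 2.4.6, scipy 1.17.1 and pandas 2.3.3.

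The members and lists were chosen with earlier results of these data known. Text names members at 1 FPKM in both libraries, the highest of each family and 40 textbook channels, except a few that enter counts and sums but are not reported here; other members were named after their values were seen. With 1 group, no test between conditions was possible. Alternatives changed the detection level, scaling, pseudocount, list summary, members and libraries.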

Additional observations from a re-analysis of the deposited data

How the results depend on the processing

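The count of 20 detected members was 20 without either replicate and by the mean of the libraries, 25 at 0.5 FPKM, 45 at 0.1 and 7 at 5 FPKM. It was 31 when each column was rescaled to the same sum (TPM), which raises values by a mean factor of 2.72. It was 12 of 119 among pore-forming subunits alone and 12 of 98 without genes that overlap another RefSeq gene or have no RefSeq position. The summed level of 176 FPKM was 174 to 178 with 1 library left out, 478 after rescaling, 106 for pore-forming subunits and 72.0 without overlapping or unplaced genes, the last setting leaving out ANO6 and TRPC4AP. The median of 0.03 on the log2(FPKM + 1) scale was 0.03 to 0.04 with 1 library left out, 0.0853 after rescaling, 0.0216 for pore-forming subunits, 0.12 over the 102 members above 0, 0.44 as a mean and -3.03 with a pseudocount of 0.1. The share of the 5 highest members was 75.3% among pore-forming subunits and 63.6% to 64.7% with 1 library left out. No member was called different between the libraries by the adjusted test, with the median ratio of genes or with at least 10 reads, and 7 were by the unadjusted p. These values describe 1 group and have no direction to reverse. Of the 108 alternative values, 72 stayed within the spread of the libraries, or within 1.5 times for a count, and 36 moved further. Much of this tally was fixed in advance. With 2 libraries, leaving 1 out always keeps a gene level or a sum within the SD, and rescaling moves every gene level by nearly the same factor. The tally is therefore no measure of how stable the results are. Pairing through RefSeq identifiers was not run, since that table was used here without Ensembl identifiers. No paired analysis was possible because the design holds 1 group. Many genes under about 0.1 FPKM had few recovered reads. So did some higher ones with a short recovered length, such as KCNMA1, CACNG4, TRPV2 and CACNB2. The order of such genes is uncertain, and because recovered reads are lower bounds, how far depth limits it is unknown.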

Other observations

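RefSeq models of 33 members lie within 200000 bp of another member, in 14 groups on Sscrofa11.1. A member at 1 FPKM or more in both libraries was present in 3 of these groups, and in 7 every member had a mean under 0.1 FPKM. On chromosome 6, CACNG6 (56123598 to 56151145, 0.530 FPKM) lies next to CACNG7 (56188362 to 56211655, 10.6 FPKM). On chromosome 15, SCN9A (2.22 FPKM) lies between SCN1A (72529866 to 72696715, listed at 0) and SCN7A (72946147 to 73026656, 0.00453 in replicate 1 and 0 in replicate 2). On chromosome 9, KCNJ5 (55836777 to 55861288, 0.790 FPKM) lies beside KCNJ1 (55779020 to 55812761, listed at 0), and on chromosome 6 TRPM4 (54342774 to 54377557, 2.39 FPKM) lies beside KCNA7 (54276596 to 54283891, 0.0612 and 0.223 FPKM). The sensory sodium channel genes SCN10A (23481537 to 23570454) and SCN11A (23602378 to 23692281) on chromosome 13 were both listed at 0. At or near 0 were also the potassium channel genes KCNA3, KCNA2 and KCNA10 on chromosome 4. These groups were picked out after their values were seen, and no test was made on them.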
